A study of Mus musculus with 2 samples.

Results

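The cytosolic ribosomal protein genes are the genes for the proteins of the cytoplasmic ribosome, named Rpl and Rplp for the large subunit and Rps for the small subunit. Members were chosen by name: genes with at least 1 protein-coding transcript whose symbol is Rpl, Rps or Rplp followed by a number, leaving out the Rps6k kinases. The rule found 82 genes, 51 of the large and 31 of the small subunit, among 55536 named genes. It passes over ribosome genes such as Rpsa, Rack1, Fau and Rpl36al, whose names follow other patterns, and it takes in 6 paralogs (Rpl3l, Rpl7l1, Rpl10l, Rpl22l1, Rpl39l and Rps27l).

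The RNA came from the nucleoplasmic fraction of macrophages grown from the bone marrow of C57BL/6J mice, and ribosomal RNA was depleted before sequencing. The cells had been exposed for 120 min to 100 ng/ml Lipid A, the part of bacterial lipopolysaccharide that the receptor Tlr4 senses. There were 2 libraries, biological replicates 1 and 2 of this 1 condition, made from 1 µg and 500 ng of RNA, and both name the same donor entry. With no unstimulated or cytoplasmic library used here, every value below is a level or a difference between replicates, never an effect of Lipid A or of the fraction.

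Ribosomal protein genes are transcribed by RNA polymerase II as short genes with several introns, and their mRNAs are exported, translated in the cytoplasm and their products returned to the nucleolus for assembly with ribosomal RNA. Each mature subunit needs most of its proteins in equal numbers. Most of these mRNAs are TOP mRNAs: they begin with a C followed by a run of pyrimidines, the 5′ terminal oligopyrimidine motif, through which mTORC1 and the RNA-binding protein Larp1 control their translation. Many of the genes also carry small nucleolar RNAs (snoRNAs) in their introns.

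All 10 macrophage marker genes were at 1 TPM (a length-scaled share of the library's transcripts) or more in both libraries, with summed levels of 1049 and 2274 TPM. None of the 8 stromal markers (Col1a1 and others) reached 1 TPM in both, but their sum was 86.4 TPM in replicate 1 and 0.35 TPM in replicate 2. T cell, B cell, neutrophil and erythroid lists summed to between 0.11 and 5.24 TPM. Of the 3 T cell markers, Cd3e and Cd3g were at 0, and Lck passed 1 TPM in both libraries with 99 and 134 counts. Of the 4 erythroid markers 1 passed, and of the B cell and neutrophil markers 0. Mitochondrially encoded RNA, which is made outside the nucleus, took 0.430% of counts in replicate 1 and 8.72% in replicate 2. The gene tables held 14171635 and 16332668 estimated counts over named genes. In bulk RNA, fewer cells of a type and less RNA per cell cannot be told apart.

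Nearly the whole family was detected in the nucleoplasmic fraction, at moderate and closely spaced levels. The fraction also held the mitochondrially encoded RNA given above. Without a cytoplasmic library, members' mRNA carried over from the cytoplasm cannot be told apart from nucleoplasmic RNA. Of the 82 genes, 79 reached 1 TPM in both libraries (96.3%), against 40.4% of the 22015 nuclear-encoded protein-coding genes. All 31 small subunit genes and 48 of 51 large subunit genes passed. The 3 that did not were the paralogs Rpl3l, Rpl10l and Rpl39l. The median member stood at 31.4 TPM, 34.5 in replicate 1 and 31.3 in replicate 2, which is above the level of 80.8% of detected protein-coding genes (median 9.05 TPM). Summed, the members took 24375 counts in replicate 1, or 0.172% of the library (95% Wilson interval 0.170 to 0.174). In replicate 2 they took 30733 counts, or 0.188% (0.186 to 0.190). These intervals cover counting error only. Of the summed TPM of protein-coding genes, the members held 1.02% and 1.31%.

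The spacing of levels was narrow. Among the 76 members without the paralogs, levels ran from 15.2 to 96.9 TPM, and 63 (82.9%) lay within 2-fold of their median of 33.3 TPM. The same count was 66.7% for the 78 mitochondrial ribosomal protein genes around their median of 3.23 TPM, and 39.7% for detected protein-coding genes. The middle 50% of these members lay between 25.4 and 44.5 TPM. Across the 79 detected members, TPM in the libraries correlated with a Spearman's rho of 0.80, a description across genes that share libraries and are not independent.

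**Figure D1:**
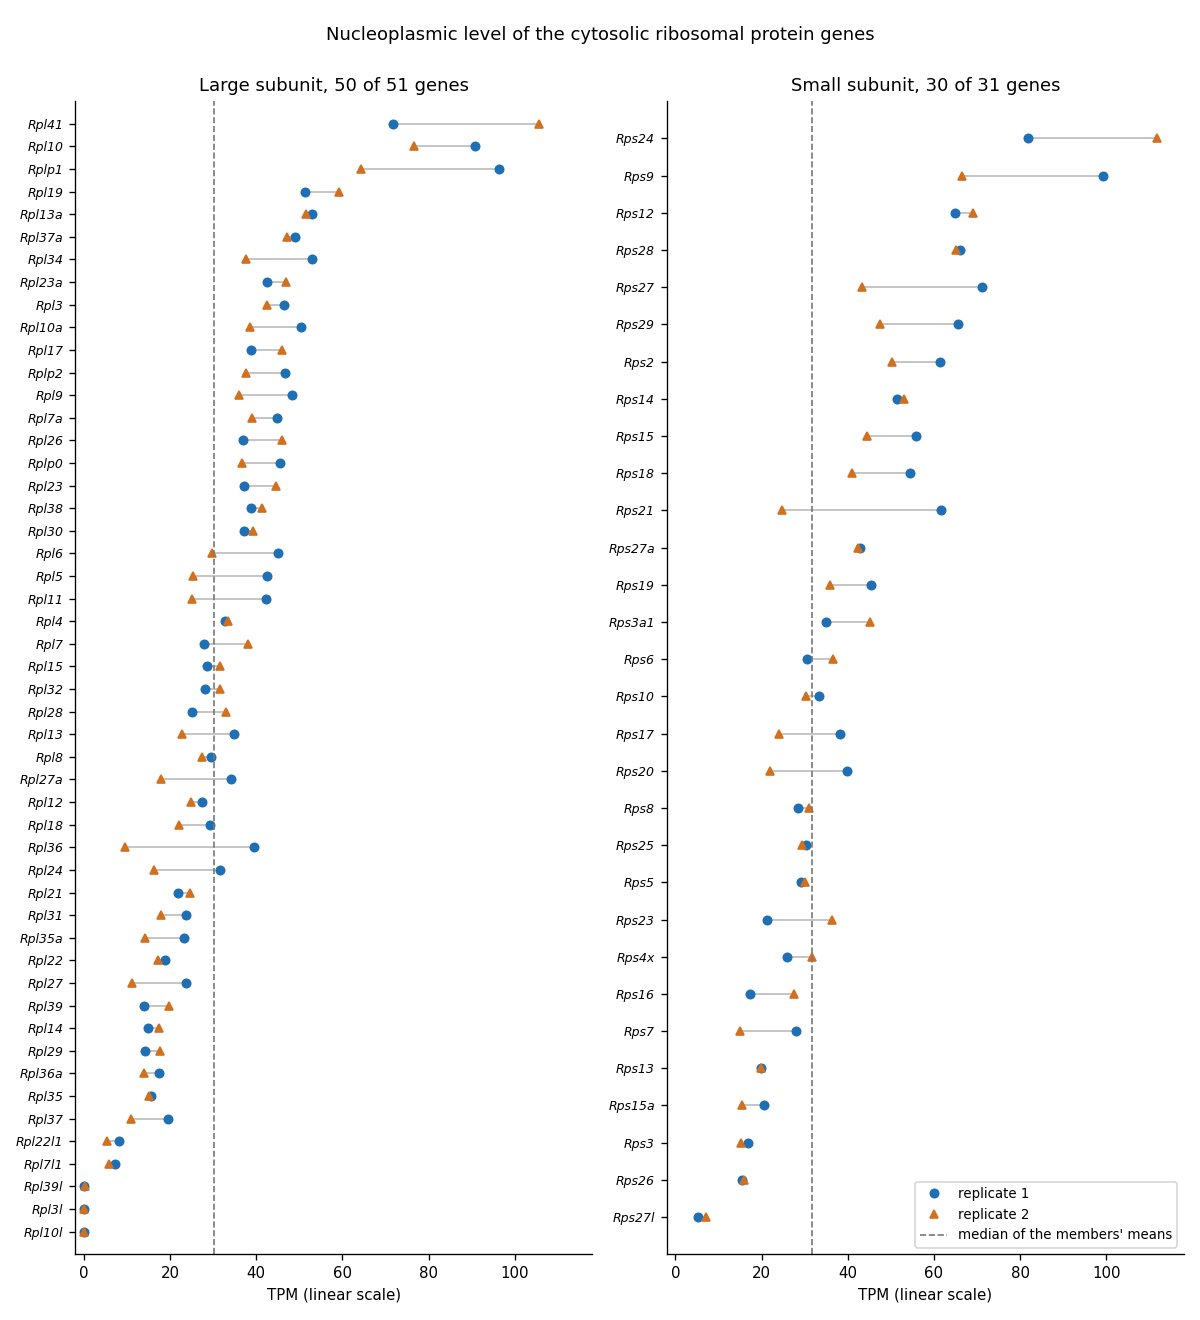
TPM of 50 of the 51 large subunit genes (left) and 30 of the 31 small subunit genes (right) in replicate 1 (circles) and replicate 2 (triangles), sorted by the mean, with the median of the means as a dashed line. Most genes lie near the medians of 30.1 and 31.8 TPM, and the lowest of each panel are paralogs.

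The subunits did not stand apart in level. The large subunit median was 30.1 TPM and the small subunit median 31.8 TPM, a ratio of 0.947 (0.979 in replicate 1 and 0.939 in replicate 2). Without the paralogs the order turned, with 33.4 TPM for 46 large and 32.7 TPM for 30 small subunit genes and a ratio of 1.02. The read-based table, which the authors made from the reads without the alignment, gave 0.992.

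Of the small subunit, Rps24 was highest by mean TPM, with 81.9 TPM in replicate 1 and 112 TPM in replicate 2. Rps9, whose protein lies at the mRNA entry channel, had 99.3 and 66.4 TPM. Rps12 followed with 64.9 and 69.1 TPM. The order of Rps24 and Rps9 thus differed between the libraries, and neither can be called the higher. Rps28 had 66.0 and 65.2 TPM. Rps27, which encodes a zinc-binding protein, had 71.2 and 43.2 TPM. Rps12 was the least certain of these, since the read-based table gave it only 15.5 and 6.10 TPM.

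At the other end of the small subunit were Rps27l, Rps26, Rps3, Rps15a and Rps13. Rps26, whose protein lines the mRNA exit channel, had 15.4 and 15.9 TPM. Rps3, of the same entry channel as Rps9, had 17.0 and 15.2 TPM. Rps15a had 20.5 and 15.5 TPM, and Rps13 had 19.8 and 19.9 TPM. The TPM of Rps26, Rps3 and Rps13 differed little between libraries. Rps6, the substrate of the S6 kinases, was near the median at 30.5 and 36.7 TPM. Rps27a, which is made as a fusion with ubiquitin, stood at 42.9 and 42.4 TPM.

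Of the large subunit, Rpl41, which encodes a very short basic peptide, had 71.7 and 106 TPM. Rpl10, whose protein is added late and is needed for subunit joining, had 90.8 and 76.7 TPM. Rplp1 had 96.3 and 64.3 TPM. Their ranges overlap, so the order among these 3 was not fixed by the libraries. Rpl19 had 51.3 and 59.3 TPM. Rpl13a, which in human monocytic cells also takes part in a translational silencing complex, had 52.9 and 51.5 TPM. In the read-based table Rpl10 ranked 43 of 82, in place of 3. Its coding transcript Rpl10-201 had 34.0 and 54.9 TPM in the alignment-based table against 2.29 and 0 TPM in the read-based table. A value of 0 in that table can be a failed estimate.

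The P-stalk proteins Rplp0, Rplp1 and Rplp2 recruit the elongation factors to the ribosome, and each ribosome carries more copies of Rplp1 and Rplp2 than of Rplp0. Rplp0 had 45.6 and 36.7 TPM, and Rplp2 had 46.8 and 37.7 TPM. Rplp1 was above both in each library, by its values given above. Rpl5 and Rpl11, which bind 5S ribosomal RNA and can hold the p53 ligase Mdm2, were alike in gene total in the alignment-based table. Rpl5 had 42.6 and 25.4 TPM there, and Rpl11 had 42.3 and 25.2 TPM. Of the Rpl5 TPM, 88.5% and 91.2% lay in retained-intron transcripts. Of the Rpl11 TPM, the coding Rpl11-201 held 13.1 and 11.6 TPM and the coding Rpl11-210 held 1.53 and 5.40 TPM. The rest of Rpl11 lay in processed transcripts. In the read-based table Rpl5 had 26.7 and 16.6 TPM, below Rpl11 at 41.5 and 23.0 TPM. Rpl3 and Rpl4, of the peptidyl transferase centre and the exit tunnel, had means of 44.5 ± 2.78 and 33.1 ± 0.382 TPM (SD, n = 2).

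By estimated TPM, each paralog lay below its partner in both libraries. Rpl10l, a testis gene in mouse, and Rpl3l, a striated muscle gene in mouse, had 0 counts in both libraries of the alignment-based table. A count of 0 allows 3 counts in each library, and against that floor Rpl10 was at least 344-fold higher than Rpl10l in replicate 1 and at least 438-fold in replicate 2. Rpl3 was at least 171-fold and 237-fold higher than Rpl3l. These bounds hold for that table only, since the read-based table gave Rpl3l 3 and 9 counts, or 0.133 and 0.227 TPM, against 28.6 and 26.1 TPM for Rpl3. Rpl39l had 0 and 2 counts, against 74 and 161 for Rpl39, whose TPM was 14.1 and 19.8. The 3 other paralogs were low but present. Rpl22l1 had 8.25 and 5.48 TPM against 18.9 and 17.1 for Rpl22, whose protein represses it in mouse. Rpl7l1 had 7.27 and 5.83 TPM against 28.0 and 38.0 for Rpl7. Rps27l, a p53 target, had 5.35 and 7.15 TPM from 22 and 44 counts, against 71.2 and 43.2 for Rps27.

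The ribosome genes outside the naming rule were of the same order. Fau, which encodes a ubiquitin-like fusion with a small subunit protein, had 58.1 and 81.6 TPM. Rack1, a scaffold on the small subunit, had 59.6 and 31.5 TPM. The lowest, Rpl36al, had 7.52 and 8.90 TPM.

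Other genes tied to translation or ribosome assembly were spread more widely. The 18 TOP mRNA genes outside the ribosome had a median of 27.9 TPM, from 7.58 TPM for Eef1d up to Eef1a1, the elongation factor gene, at 296 and 421 TPM. Pabpc1, the poly(A)-binding protein gene, had 240.5 and 246 TPM, and Tpt1 had 85.1 and 164 TPM. Of the 40 ribosome biogenesis genes, 33 were detected and the median was 4.32 TPM. Sbds, which acts in release of Eif6 from the large subunit, led them at 151 and 103 TPM, followed by Ncl at 21.8 and 27.4 TPM and Nop56 at 27.5 and 10.4 TPM. Bysl was lowest at 0.39 and 0.36 TPM. Of the 78 mitochondrial ribosomal protein genes, 74 were detected, and Mrpl24 (27.2 and 29.6 TPM), Mrpl52 (26.2 and 11.8 TPM) and Mrps9 (21.2 and 13.8 TPM) were highest. Mrpl35 was lowest at 0.89 and 0.87 TPM.

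**Figure D2:**
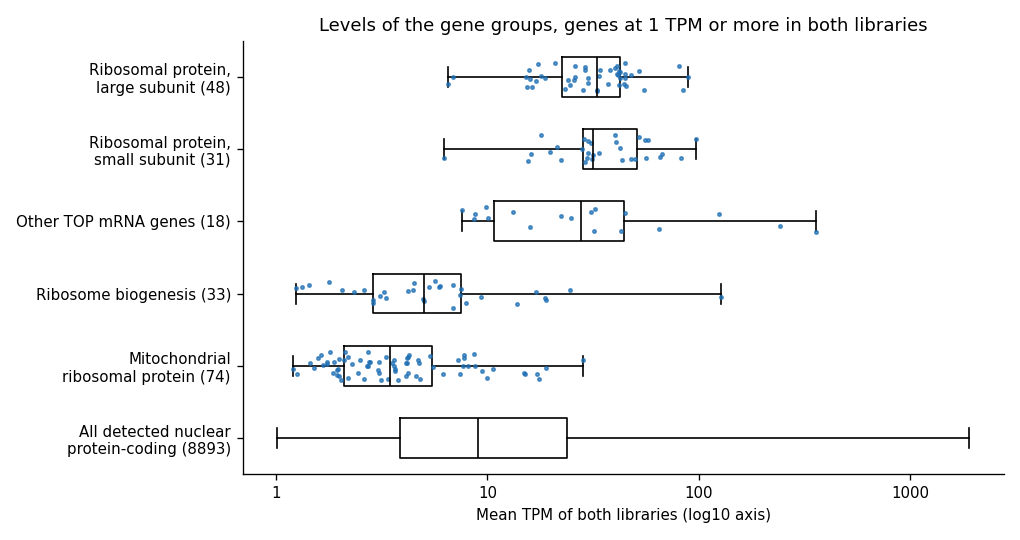
Mean TPM of both libraries (log10 axis) for genes at 1 TPM or more in both, by group, with boxes for the quartiles, whiskers to the extremes and points for single genes where a group has under 200. The ribosomal protein genes form narrow boxes near 30 TPM, above the mitochondrial ribosomal protein and biogenesis genes.

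Gene length moved with level within the family. Length here is that deposited by the authors for replicate 1, such as 1323.73 bases for Rps24. It can be fractional, so it is an average over transcripts from 1 library, not a single annotated length. TPM divides by effective length, and RNA little longer than the selected fragments (250 to 400 in the labels' size range) has an effective length that is small and uncertain. The 9 detected members under 500 bases had a median of 56.6 TPM, against 30.5 TPM for the 70 longer ones. Across the 79, Spearman's rho of TPM with length was -0.22, given as a description across genes. The part of length in the order of members was not tested. Members were short as a group, with a median length by this measure of 742 bases against 2355 for detected protein-coding genes.

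Pyrimidine-rich starts, known for this family, were commoner in the members than over all genes, though most members lacked the C start as annotated. RefSeq start windows on GRCm38.p6 matched 62 of the 82 genes by symbol, each window running from 250 bases before to 50 bases from the annotated start. A C at the start followed by at least 4 C or T was present in 13 of 62 (20.97%), against 3.01% of all 27025 genes with a window and 0 of 69 mitochondrial ribosomal protein genes. A run of 8 or more C or T within 25 bases of the start was present in 33 (53.2%), against 22.3% of all. These shares are descriptions of annotated starts, which need not be the starts used in these cells. The following windows show 15 bases before and 15 bases from the start, so that the start is base 16, with the longest C/T run in capitals. Rps27, Rps18, Rps21 and Rplp2 are the highest members with the C start by mean TPM, Rps24 and Rpl41 the highest of all members with a window, and Rpl10l and Rpl3l the paralogs at 0 counts in the alignment-based table.
Rps27: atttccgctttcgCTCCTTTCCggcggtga
Rps18: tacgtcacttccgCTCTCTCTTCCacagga
Rps21: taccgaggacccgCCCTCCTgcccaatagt
Rplp2: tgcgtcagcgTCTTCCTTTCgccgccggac
Rps24: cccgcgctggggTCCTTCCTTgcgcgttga
Rpl41: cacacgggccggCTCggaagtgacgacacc
Rpl10l: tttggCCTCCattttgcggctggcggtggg
Rpl3l: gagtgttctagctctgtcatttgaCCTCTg

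In the order printed, the windows lie at chr3:90213634-90213663 (minus strand), chr17:33955651-33955680 (minus), chr2:180257364-180257393 (plus), chr7:141447636-141447665 (plus), chr14:24490663-24490692 (plus), chr10:128549154-128549183 (minus), chr12:66284387-66284416 (minus) and chr17:24727811-24727840 (plus). The run was 9 bases in Rps27 and 11 in Rps18, and 5 in each of Rpl10l and Rpl3l. Rps24 has a run of 9 bases across an annotated T start, and Rpl41 has a run of only 3 bases although it was the highest large subunit gene by mean TPM. The 13 members with the C start had a median of 31.8 TPM and the 49 without it 29.8 TPM, and their ranges, 15.3 to 57.2 and 0 to 96.9 TPM, overlapped.

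Other letters were also commoner in these windows. CCGGAAG, the core bound by ETS factors, was present on either strand in 25 of 62 (40.3%). It was in 9.93% of all genes with a window, 13.4% of protein-coding ones and 37.7% of mitochondrial ribosomal protein genes. Its reverse complement begins with pyrimidines and can overlap a C/T run. ATGGCG, the core bound by Yy1, was present on either strand in 21 (33.9%), against 10.2% of all and 12.7% of protein-coding genes. It can coincide with a start codon. The share was 28.6% in members without the paralogs and 27.5% in mitochondrial ribosomal protein genes. TATAAA on either strand within 50 bases before the start was found in 1 member (1.61%), the paralog Rpl22l1, against 4.17% of all.

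The members were spread over 19 chromosomes, with 14 of 82 on chromosome 7. Rps2 and the paralog Rpl3l lie 5890 bases apart on the same strand of chromosome 17, with 61.4 and 50.4 TPM for Rps2.

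Between the replicates, most members stood higher in replicate 2 than the median gene. The median log2 ratio was -0.58 over the 12655 genes whose mean was at least 1 TPM, and each gene's ratio, computed with a pseudocount of 1, is given relative to it. By that measure 64 of 79 members (81.0%) lay above 0, against a background of 55.7% of 9556 protein-coding genes, with a median of 0.46 against 0.06. With no filter on level, where genes without expression put the median of all genes at 0, the members' median was -0.08 and 32 of 82 lay above 0. The medians were 0.45 for the large and 0.54 for the small subunit. Above a log2 of 1 were 7 members, against a background of 5.46%, and below -1 was 1 member, Rpl36, against a background of 1.73%. With 1 library on each side, there is no test of this difference.

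Mitochondrial ribosomal protein genes shifted the same way, with 61 of 76 above 0 and a median of 0.30. Other TOP mRNA genes were above 0 in 14 of 18 cases, with a median of 0.34, while ribosome biogenesis genes were near the median gene, with 21 of 37 above 0 and a median of 0.03. The stromal sum and the mitochondrially encoded share given above differ between the same libraries, as does the RNA input. Their part in the shift was not tested, and with 2 libraries they cannot be told apart.

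Among members with 100 or more counts in both libraries, Rps23 had the highest relative ratio. Its level was 21.2 TPM in replicate 1 and 36.4 TPM in replicate 2, a relative log2 of 1.33. Rps16 went from 17.4 to 27.4 TPM, a relative log2 of 1.21. In the read-based table Rps23 had 16.0 and 18.2 TPM, and Rps16 had 14.9 and 12.1 TPM. The TPM of Rps16 thus rose in the alignment-based table only. The median log2 ratio of all genes was -0.63 in the read-based table. The lowest were Rpl24 (31.6 and 16.4 TPM, -0.32), Rpl27a (34.3 and 17.99 TPM, -0.31) and Rps7 (27.9 and 14.99 TPM, -0.27). In the read-based table the means of Rpl24 and Rps7, 27.9 and 31.9 TPM, were above those of the alignment-based table, 24.0 and 21.5 TPM.

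Rpl36, Rps21 and Rpl27 had lower relative ratios, each with under 100 counts in replicate 2, and are named after their values were seen. Rpl36 had 94.0 and 34 counts, or 39.6 and 9.53 TPM, a relative log2 of -1.36. Rps21 had 157 and 94 counts, or 61.5 and 24.8 TPM, a relative log2 of -0.70. Rpl27 had 133 and 87.2 counts, or 23.6 and 11.1 TPM, a relative log2 of -0.44. Rpl36 and Rps21 are short, and Rpl36 has a pseudogene that moved with it, Rpl36-ps2, with 112 and 15 counts. Reads of the gene and such a copy cannot be told apart by sequence where the copy is nearly identical.

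**Figure D3:**
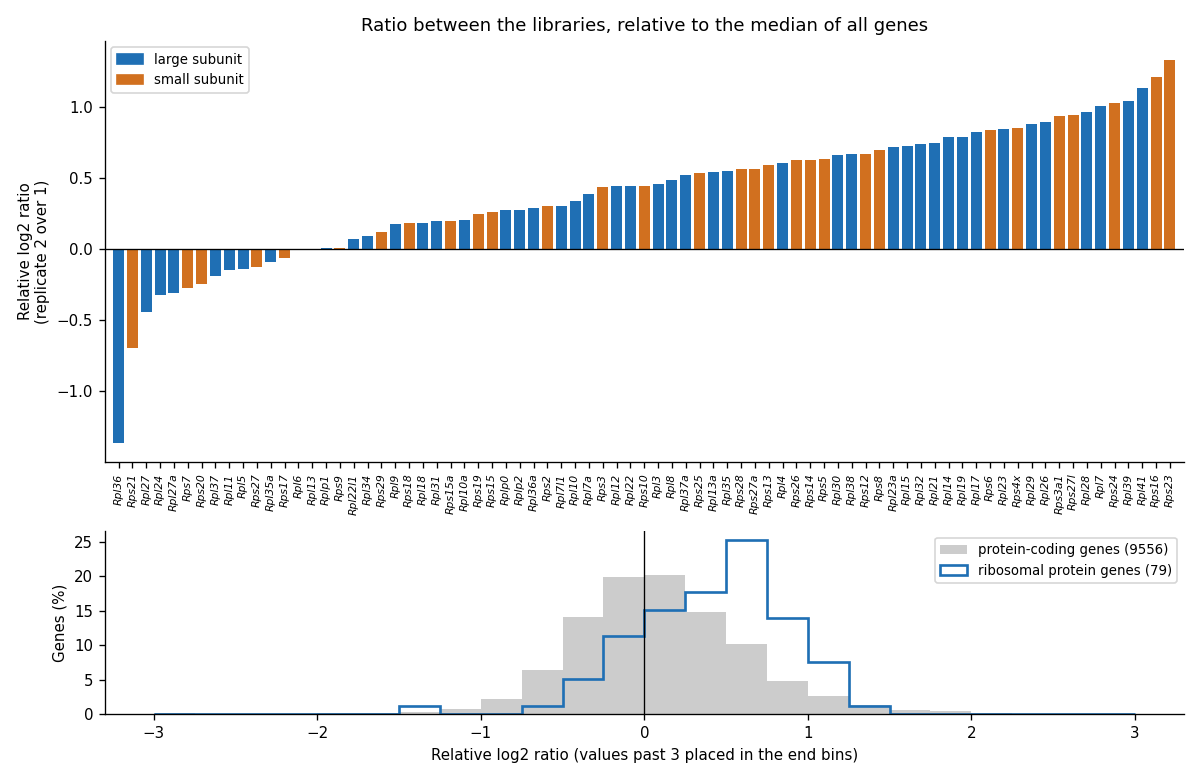
Relative log2 ratio of replicate 2 over replicate 1 for 77 of the 79 members at a mean of 1 TPM or more (top, bars by subunit), and its distribution in percent of genes for all 79 and for 9556 protein-coding genes (bottom). Bars above 0 number 62, the highest being Rps23 at 1.33 and the lowest Rpl36 at -1.36.

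Most RNA assigned to the members was assigned to coding transcripts, and the median retained-intron share was lower than over all protein-coding genes. The annotation lists 230 coding, 174 retained-intron, 65 processed and 23 nonsense-mediated decay transcripts for the 82 genes. Coding transcripts held 70.7% of the members' TPM in replicate 1 and 77.7% in replicate 2. Retained-intron transcripts held 21.2% and 16.1%, processed transcripts 5.66% and 3.46%, and nonsense-mediated decay transcripts 2.38% and 2.72%. Relative to the median gene, summed coding TPM was higher in replicate 2 by a log2 of 0.57, and summed retained-intron TPM by 0.04.

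Per gene, 63 members had a retained-intron transcript and 5 TPM or more in both libraries. Their median share of TPM in such transcripts was 21.9% in replicate 1 and 15.7% in replicate 2. Over 3788 protein-coding genes chosen the same way the medians were 39.3% and 33.0%. The share was lower in replicate 2 in 47 of the 63 (74.6%), near the background of 72.3%. A share of 50% or more in both libraries was found in 5 of 63 (7.94%), against a background of 21.9%. These were Rpl5, Rps16, Rps20, Rpl37 and Rpl22l1. By the read-based table, 10 of 63 members had such a share, against 1033 of 3788 protein-coding genes.

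The highest shares rested on different kinds of transcript. Rpl5 had 88.5% and 91.2% of its TPM in retained-intron transcripts, spread over 4 of them, and 75.7% and 82.8% in the read-based table. Its exons share 953 bases with Fam69a on the opposite strand, which had 85.9 and 140 counts. Rps16 had 79.5% and 93.5%, but 26.6% and 58.6% in the read-based table. Rps20 had 71.4% and 79.3% of TPM, but only 19.5% and 27.1% of counts, since TPM is per length and its coding transcript Rps20-203 is 3706 bases long. Rpl5, Rps20 and Rpl37 kept a share over 50% in both libraries and both tables. Transcripts with an exon covering a whole intron of the principal transcript held only 7.67% and 3.89% of the TPM of Rpl5, and 0% of that of Rpl37 in both libraries.

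The lowest shares were those of Rps27l, Rplp0 and Rpl23a. Rps27l had 0% in both libraries, although the read-based table gave 26.8% and 11.4%. Rplp0 had 2.02% and 0.899%, and Rpl23a had 2.26% and 2.35%. Shares of Rplp0 and Rpl23a stayed under 3% in both tables.

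In 15 members the share was higher in replicate 2, and several of these had more counts there in 1 short transcript. Rps23 went from 13.4% to 53.9% with the 450-base transcript Rps23-202, which had 9.36 and 97.3 counts. Rpl13a went from 15.3% to 54.1% with the 464-base Rpl13a-213, at 12.2 and 134 counts. Rps26 went from 32.6% to 68.9% with the 596-base Rps26-202, at 10.3 and 73.7 counts. The 518-base Rps16-203 had 37.4 and 137 counts. All 4 are annotated as retained-intron, yet none has an exon that covers a whole intron of the principal transcript. Rps23 and Rps16, the members named above for their high relative ratios, had these transcripts as their leading transcript by mean TPM. In replicate 1 alone, Rps23-202 had 2.84 TPM, below Rps23-203 at 9.91 TPM.

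**Figure D4:**
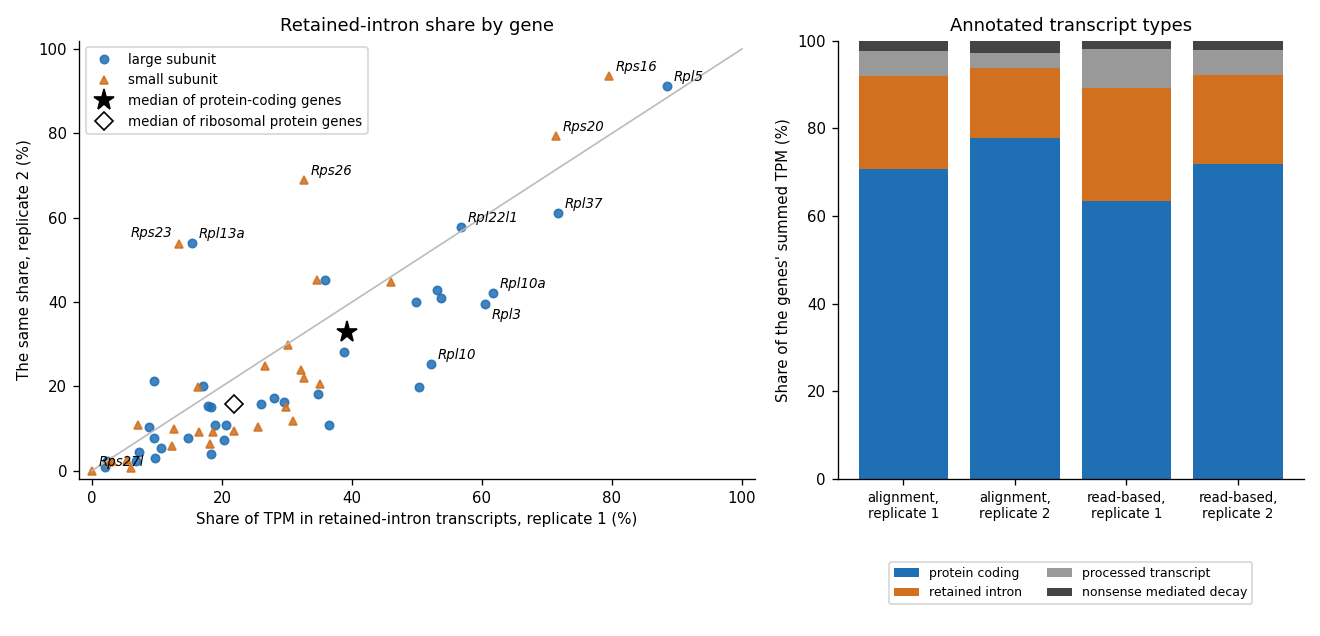
Left, share of each gene's TPM in retained-intron transcripts in replicate 1 against replicate 2 (%), for 63 members by subunit, with the medians of the members and of 3788 protein-coding genes. Right, share of the members' summed TPM by annotated transcript type in each library, from the alignment-based and the read-based table, with coding transcripts at 70.7% and 77.7% in the former.

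The leading transcript by mean TPM was of coding type in 68 of the 80 members with any TPM, of retained-intron type in 10 and of nonsense-mediated decay type in 2. The same count was not made over all protein-coding genes, so whether these numbers are usual is not known. Among the members led by a nonsense-mediated decay transcript was Rpl12 (Rpl12-201, 9.71 and 17.7 TPM). Rpl12 was also a gene on which the tables differed, with 27.4 and 24.8 TPM against a read-based mean of 5.89 TPM.

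Rps24 has several coding isoforms whose levels were estimated separately. The gene lies at chr14:24487125-24496959, and its isoforms differ at the end of the coding sequence by the use of very short exons. The lines below give, for 4 of its coding isoforms, the last 12 bases of the 111-base exon (chr14:24493383-24493493) and the next bases of the transcript, with the stop codon in capitals, from the GENCODE M21 transcripts.
Rps24-201: gctggcaaaaagTGA
Rps24-202: gctggcaaaaagTGAgtggagattggatac
Rps24-205: gctggcaaaaagaaaTGAaatacctagcag
Rps24-210: gctggcaaaaagccaaaggagTAGatctgc

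Rps24-202 reads into a 20-base exon (chr14:24495430-24495449), which holds its stop codon. Rps24-205 reads first through an 18-base exon (chr14:24494052-24494069), and Rps24-210 skips both into the last exon (chr14:24495775-24496959). Rps24-201 has the same coding end as Rps24-202 but its annotation stops after 3 bases of that exon. Rps24-201 had 13.3 TPM in replicate 1 and 64.7 TPM in replicate 2, from 47.2 and 346 counts. Rps24-202 had 16.4 and 11.9 TPM, Rps24-207, with the same coding end, had 1.46 and 0.16 TPM, and Rps24-210 had 12.8 and 16.6 TPM. Rps24-205 had 0 counts in both libraries and both tables, which allows 3 counts. The read-based table gave the same direction for Rps24-201, from 15.4 to 42.7 TPM. Of the coding isoforms, Rps24-201 differed most between the libraries, and the level of the whole gene was higher in the same library.

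Many members host snoRNAs, which guide the modification of ribosomal RNA and are released from the introns. The annotation places 55 snoRNA genes inside 29 members, 20 of the large and 9 of the small subunit, on the same strand. The 35 shorter than 100 bases had a deposited effective length of 0 in both libraries, so their 0 counts were fixed in advance. Of the 20 with 100 bases or more, 11 had counts. Snord15b in Rps3 had 225 and 23.8 counts, and Snord15a in Rps3 had 113 and 54 counts. Effective lengths were very small here too, such as 4.12 and 3.46 bases for Snord15a. In all, the snoRNAs inside members had 400.3 counts in replicate 1 and 82.7 in replicate 2. The labels' size range lies above the length of these RNAs, so their counts say little of their amount. Hosts and other members had median levels of 34.0 TPM over 29 hosts and 33.0 TPM over the 47 non-hosts that are not paralogs. The median retained-intron share was 25.5% in 24 hosts and 16.6% in 39 non-hosts.

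Processed pseudogenes of this family are numerous and can share reads with their parents. There were 289 loci named as pseudogenes of 59 members, of which 186 had 0 counts in both libraries. Together they had 1136 and 1087 counts, 4.66% and 3.54% of the members' counts, and 8.13% and 7.43% in the read-based table. Rps2-ps9 led with 275 and 162 counts, against 635 and 759 for Rps2. All pseudogenes of Rpl36 together had 117 and 16 counts, more than Rpl36 itself in replicate 1. Levels of Rps2 and Rpl36 are uncertain to that extent.

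The tables differed on the level of the family. The read-based table was lower for 72 of 79 members, with a median log2 of -0.57, against -0.16 over detected protein-coding genes. Across the 79 members, Spearman's rho between the tables was 0.76, as a description. The SD of counts that the authors' deposited table gives for assigning reads was small by comparison. Its median was 0.611% and 0.530% of a member's count, and it was over 2% in both libraries for 10 members. The authors' TPM interval could be far wider, as for Rpl22l1 above. Exons of 22 members share bases with a gene that is not a small RNA, 19 of them with a gene on the opposite strand, and whether counting used strand is not given in the sources used here. In 12 members the partner gene had at least 10% of the member's counts, so part of those counts is uncertain.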

How the data were processed

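Ribosomal RNA-depleted nucleoplasmic RNA of 2 libraries was quantified by the authors on mm10 with GENCODE M21, per the notes deposited with the files. Gene and transcript tables came from a transcriptome alignment, and the read-based transcript table came from the read files, per those notes. The names and versions of the tools, and any use of strand, were not given in the sources used here, though columns are headed as in RSEM and kallisto output. Per the file headers, the deposited expected counts are estimates that can be fractional. TPM and FPKM, as deposited by the authors, are per effective length and per library. The authors' SDs of counts were copied from their gene tables.

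Depths were 14171635 and 16332668 counts over named genes. The other 26345 entries (1.41% and 0.245% of counts) name no gene and were left out. The libraries form 1 group, so values are described by mean, SD and range without tests, and the spread between them may be technical. A level is TPM, and a ratio is log2 of TPM plus a pseudocount of 1. Detection needed 1 TPM in both libraries. Zero counts allow 3 counts. Retained-intron shares needed 5 TPM in both. The ratio step was tested on simulated counts. Alternatives used other tables, units, limits, TMM factors (edgeR 4.0.16) and DESeq2 1.42.0 size factors on rounded counts, and members left out. Python 3.11.15, pandas 2.3.3, scipy 1.17.1, statsmodels 0.14.6, matplotlib 3.10.9 and R 4.3.3 were used.

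Members and lists were chosen with earlier results of these data known. By rule, values of every library are given for the 5 highest and 5 lowest members of each subunit, members under 1 TPM, paralogs with partners, the P-stalk, Rps27a, the 3 largest ratios each way at 100 or more counts, and the 3 highest and lowest retained-intron shares. Of other lists, the 3 highest genes and the lowest are named. A few genes that these rules take are not reported here by name.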

Additional observations from a re-analysis of the deposited data

How the results depend on the processing

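No paired analysis was possible because the libraries form 1 group. The number of detected members was 79 at 5 TPM, at 0.1 TPM, at 10 counts, in the read-based table and in each library alone (79 to 79), and 76 without paralogs. Of 40 alternatives over 6 results, 26 kept the value within 1 SD of the libraries, within 1.5 times for counts, or within 0.1 for the log2 ratio. The median level of 31.4 TPM became 24.3 TPM in the read-based table and 126 TPM when rescaled to the total of nuclear protein-coding genes, and was 31.3 to 34.5 TPM in single libraries. The mean share of counts, 0.180%, became 0.160% in the read-based table, 0.257% of nuclear protein-coding counts and 0.221% without Malat1, Rn7sk and mitochondrially encoded genes, and was 0.172% to 0.188% in single libraries. The ratio of subunit medians, 0.947, became 0.992 in the read-based table, 1.02 without paralogs and 1.04 over members at 1 TPM or more, and was 0.939 to 0.979 in single libraries. The median relative log2 ratio of 0.46 became 0.30 in the read-based table and reversed to -0.078 with no filter on level, where unexpressed genes set the median of all genes to 0. It was 0.46 with TMM and 0.43 with DESeq2 size factors. The median retained-intron share, 18.9%, became 24.7% in the read-based table and was 15.7% to 21.9% in single libraries. Counting only transcripts that cover a whole intron of the principal transcript, an alternative chosen after seeing the data, gave 10.1%. Causes of these differences were not tested beyond the construction named.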
